A study of Ursus arctos with 12 samples.

Results

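The genes described here encode the sarcomere, the Z-disc and the thin filament of skeletal muscle, together with a few of the proteins that fold, cap or anchor them. They were a list of 50 gene symbols, chosen by function, and 49 of them were found in the deposited table of 30249 genes, each with at least 30 reads summed over the 12 libraries. All 49 therefore entered the comparison with the other genes of that depth, 17290 in all. PALLD was absent under its symbol. A row carrying the RefSeq gene number of PALLD had 184 to 1239 reads per library and a log2 fold change of −0.23 (SE 0.18, adjusted p = 0.335), and it was left out of every count.

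The RNA sequencing covered 6 of the study's free-ranging brown bears (Ursus arctos), aged 2 to 3 years. Vastus lateralis muscle was taken from each once in winter, during hibernation, and once in summer, after the animals had become active again. Each season was thus represented by 6 libraries and each bear by a winter and a summer library, with winter sampled first and summer in the same year. The bears lived wild in Sweden and were anaesthetised for sampling at both captures. The season therefore stands for inactivity, fasting and everything else that changes between February and June, which cannot be told apart here. Depth ran from 16742406 to 32140160 reads counted on genes per library.

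In the sarcomere, thin filaments of actin slide past thick filaments of myosin. Nebulin runs along the thin filament, tropomodulin and leiomodin act at its pointed end, and the CapZ protein caps its barbed end in the Z-disc, where alpha-actinin crosslinks filaments of neighbouring sarcomeres. Titin spans from the Z-disc to the M-band, myosin-binding protein C decorates the thick filament, and desmin ties the Z-discs of adjacent myofibrils together. Several of these proteins exist as fast-fibre and slow-fibre forms encoded by separate genes.

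The seasons were compared in edgeR (quasi-likelihood F-test, bear as a term), and a gene was called when its adjusted p was below 0.05. Levels are given as CPM, the reads of a gene per 1e+06 reads of its library, scaled by TMM factors, and changes as the log2 fold change of winter over summer, so that a value of 1 stands for a level 2 times as high, each with its standard error (SE). Reads were not corrected for transcript length, so levels are compared between seasons and not between genes. Muscle biopsies hold several cell types, and a lower level in bulk RNA can come from fewer cells of a type or from less RNA per cell, which these data do not separate.

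The genes did not move together. In winter 9 of the 49 were higher and 13 were lower, which is 18.4 and 26.5% of them, against 19.6 and 21.2% of all genes tested (40.8% in either direction). The median log2 fold change was −0.04, beside 0 for all genes, and 27 genes were not called. The extremes lay far from this centre, from −1.57 for KBTBD13 and −1.56 for TCAP to 1.61 for PDLIM3. Changes in one direction in all 6 bears were seen for 24 genes, 9 upward and 15 downward, where 37.4% of all genes had a change of one direction. The 6 winter libraries and the 6 summer libraries did not overlap for 12 genes, where 17.3% of all genes did not overlap. Those 12 genes were KLHL41, NRAP, PDLIM3, TTN and NEB, higher in winter, and KBTBD13, MYOM2, MYBPC2, TMOD1, ACTN2, MYOZ3 and TCAP, lower in winter.

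**Figure D1:**
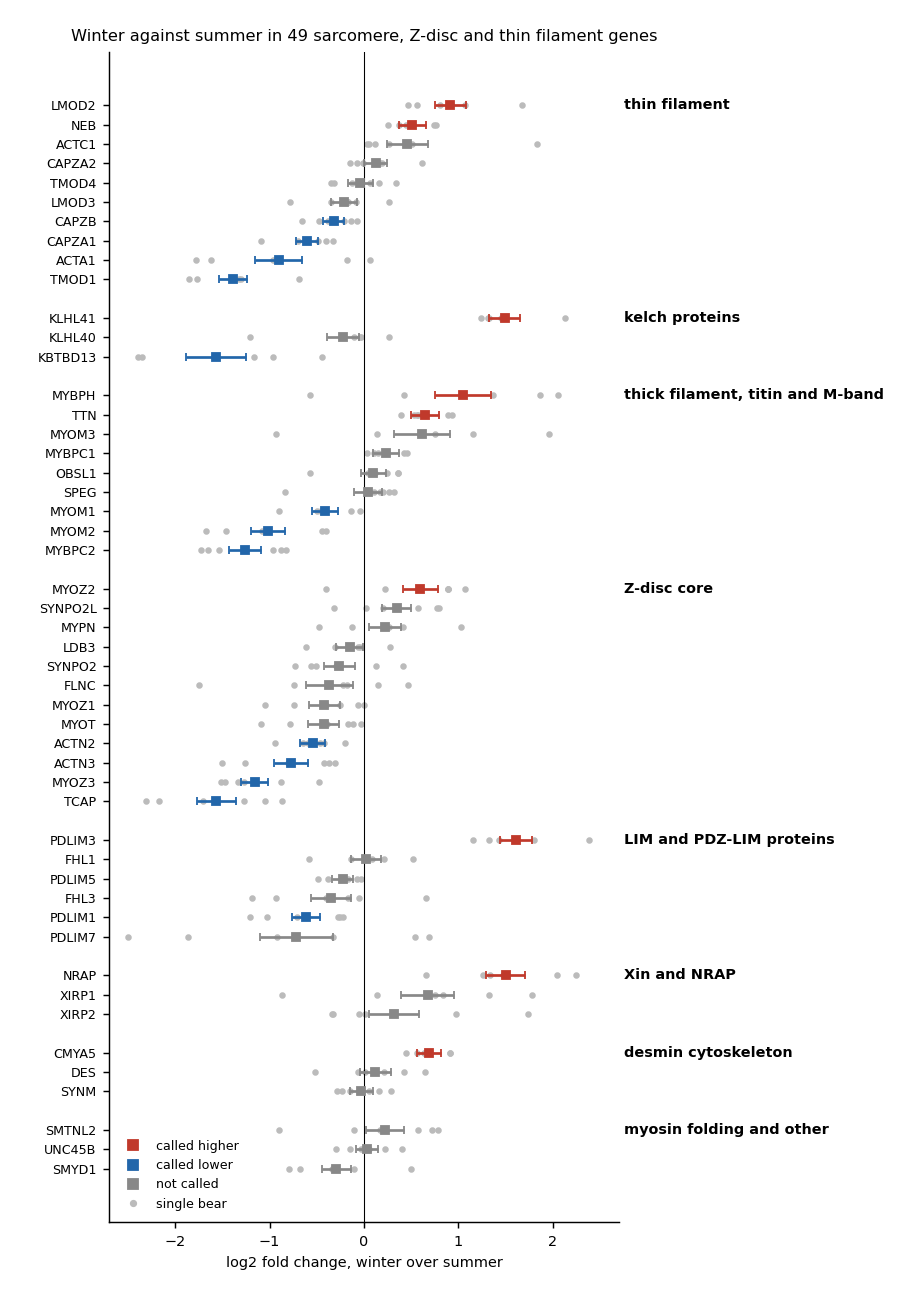
Log2 fold change of winter over summer (x axis) for each of the 49 genes (y axis), arranged by role. Squares with bars are the edgeR estimate ± its standard error, coloured by whether the gene was called higher, called lower or not called, and grey dots are the differences of log2 CPM in the 6 single bears. Rises and falls stand side by side within the same role, as for LMOD2 at 0.92 and TMOD1 at −1.39 in the thin filament.

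Together these genes took up a larger share of the reads in winter, which is not a share of mRNA molecules, as transcript length was not corrected for. They held 10.8 to 12.2% of all reads in summer (median 10.9%) and 12 to 13.4% in winter (median 12.9%), with a higher share in 6 of 6 bears. Of the single genes, 4 changed most in share. On average the share of KLHL41 grew by 1.42 percentage points, that of TTN by 0.964 and that of NRAP by 0.455, while the share of ACTA1 changed by −0.975. KLHL41 alone went from 0.708 to 0.980% of a summer library to 1.83 to 2.59% of a winter library. The other 45 genes held 5.79 to 6.37% in summer and 5.50 to 6.01% in winter, higher in 2 of 6 bears. These shares are descriptions of the libraries and were not tested.

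**Figure D2:**
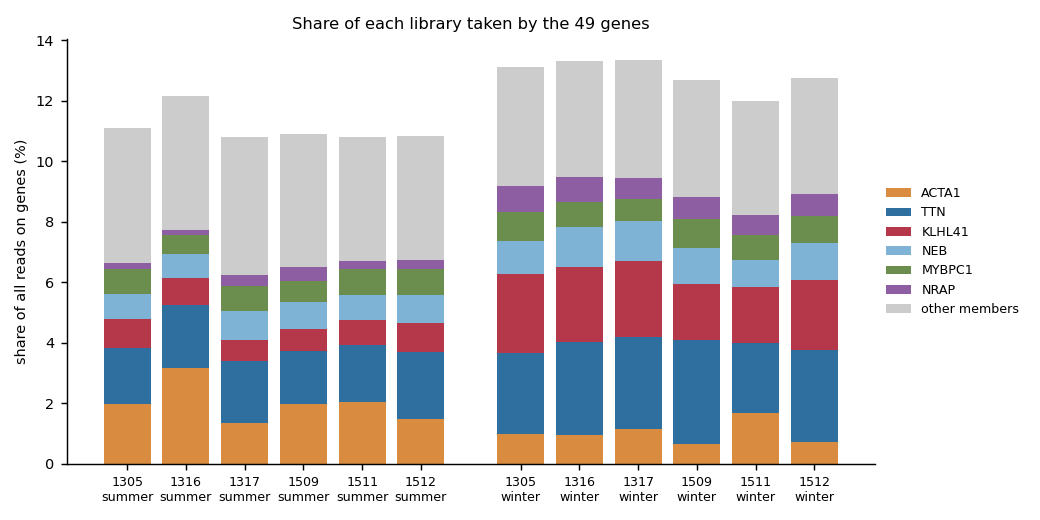
Share of all reads on genes (y axis, percent) taken by the 49 genes in each of the 12 libraries (x axis), with ACTA1, TTN, KLHL41, NEB, MYBPC1 and NRAP drawn separately. The ACTA1 segment is 1.35 to 3.18% in summer and 0.657 to 1.69% in winter, while those of KLHL41, TTN and NRAP are taller in every winter library than in any summer library.

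Among the 10 thin filament genes, 2 were higher and 4 lower in winter. These are 20 and 40% of them, against 19.6 and 21.2% of all genes tested. ACTA1, the main actin of adult skeletal muscle, stood at 11853, 19063 and 34136 CPM in summer (lowest, median and highest library) and at 6069.6, 9952 and 17447 CPM in winter. The seasons overlapped, since ACTA1 changed by −1.78 on the log2 scale in bear 1316 and by −1.62 in bear 1509 but differed by only 0.06 in bear 1317 and −0.18 in bear 1511. The call of its log2 fold change, −0.91 (SE 0.25, adjusted p = 0.0152), rested on bear 1509, without which the change was −0.75 with an adjusted p of 0.0512 (0.00337 to 0.0512 over the alternatives). ACTC1, the actin of heart and of developing muscle, had 189 to 1469 reads per library, and was at 8.65, 28.0 and 54.9 CPM in summer and 10.4, 44.7 and 88.4 CPM in winter. It was higher in 6 of 6 bears but by only 0.03 to 0.51 in 5 of them and by 1.83 in bear 1511, and at 0.46 (SE 0.22, adjusted p = 0.113) it was not called. The actin proteins are nearly identical, and their coding sequences are similar. How reads that fit several of these genes were counted is not given in the sources used here. The values of both genes are uncertain in this respect.

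Nebulin (NEB) was at 7869.5, 8437 and 8995 CPM in summer and at 9400.0, 11957 and 14359 CPM in winter. Every winter library lay above every summer library, and the log2 fold change was 0.51 (SE 0.14, adjusted p = 0.0149), with single bears from 0.26 to 0.76. Without bear 1305 the change was the same in size, 0.51, with an adjusted p of 0.052 (1.84e-05 to 0.052 over the alternatives). LMOD2, a leiomodin that promotes elongation of the thin filament and is known mainly from heart, was at 645, 695 and 985 CPM in summer and 925, 1256 and 2067 CPM in winter. It rose by 0.92 (SE 0.16, adjusted p = 0.00143) in 6 of 6 bears, most in bear 1317 with 1.67, and the summer library of bear 1316 stood apart as the highest of its season. LMOD3, the leiomodin of skeletal muscle, was not called at −0.21 (SE 0.14, adjusted p = 0.245).

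At the filament ends the tropomodulins diverged. TMOD1 was at 256, 285 and 354 CPM in summer and 89.7, 108 and 159 CPM in winter, so that the highest winter library was still below the lowest summer library. Its log2 fold change was −1.39 (SE 0.15, adjusted p = 9.12e-05). TMOD4, the main tropomodulin of skeletal muscle, was at 1419.5, 1855 and 2208 CPM in summer and 1487, 1776 and 2212 CPM in winter, with 3 bears higher, 3 lower and a log2 fold change of −0.04 (SE 0.14, adjusted p = 0.843). Of the CapZ subunits, CAPZA1 fell (−0.60, adjusted p = 0.00226) and the beta subunit CAPZB fell (−0.32, adjusted p = 0.0336), each in 6 of 6 bears, while CAPZA2 stood at 0.12 (adjusted p = 0.438). The call for CAPZB was lost without bear 1305 (adjusted p = 0.0913), bear 1316 (0.0754) or bear 1509 (0.0849), within 0.00356 to 0.0913 over the alternatives.

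**Figure D3:**
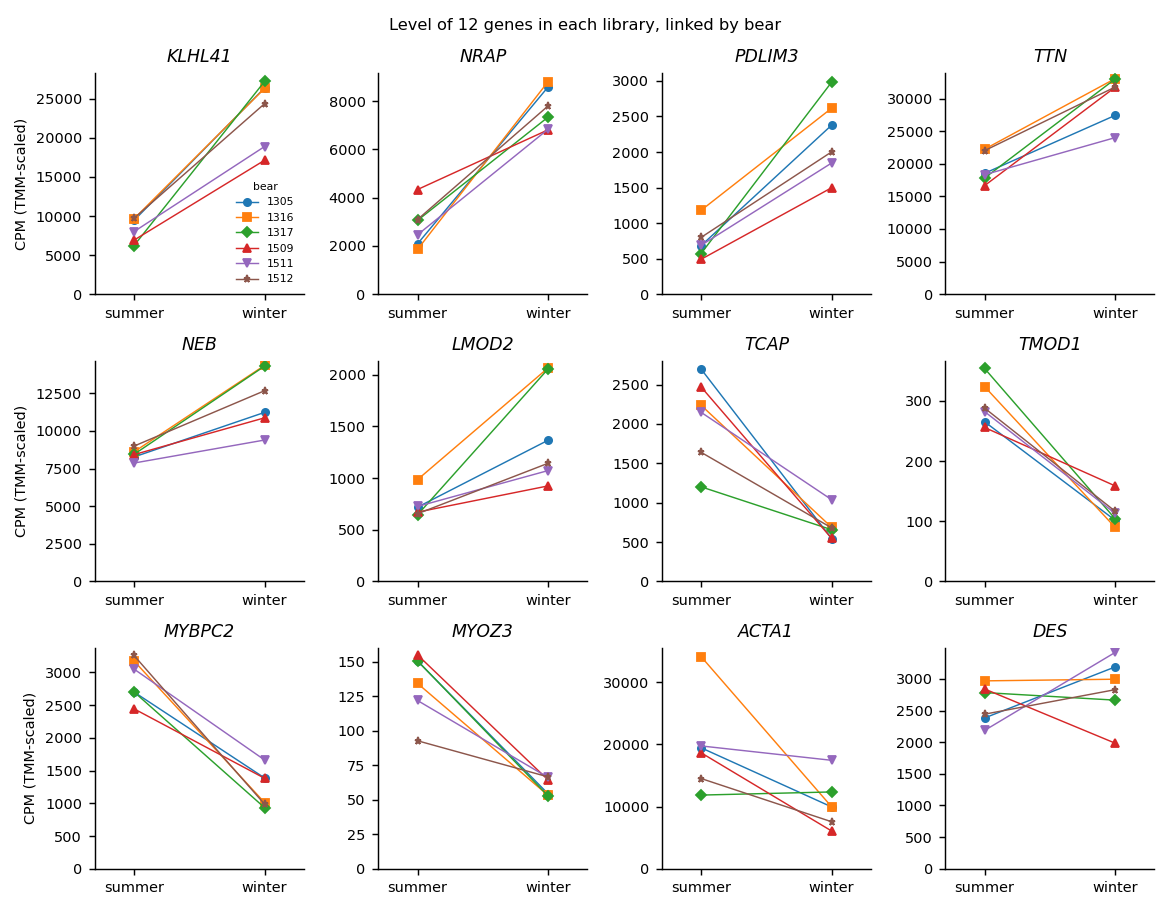
Level of 12 of the genes in CPM (y axes, starting at 0) in summer and winter (x axes), with a line for each of the 6 bears. KLHL41, NRAP, PDLIM3, TTN and NEB rise and TCAP, TMOD1, MYBPC2 and MYOZ3 fall without overlap between the seasons, whereas LMOD2 and ACTA1 overlap and DES goes up in 4 bears and down in 2.

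The 3 kelch proteins, which bind the thin filament or act with CUL3 ubiquitin ligases and are known from nemaline myopathy, went different ways. KLHL41, a partner of nebulin and NRAP, stood at 6211, 8719 and 9707 CPM in summer and at 17145, 25365 and 27233 CPM in winter. The lowest winter library, that of bear 1509, was well above the highest summer library. The log2 fold change was 1.49 (SE 0.17, adjusted p = 0.000104), a 2.81-fold level, and single bears rose by 1.24 to 2.13. KLHL40, which stabilizes nebulin and LMOD3, was at 48.2, 67.1 and 78.4 CPM in summer and 30.8, 60.6 and 76.0 CPM in winter and was not called (−0.22, adjusted p = 0.311). It differed most in bear 1509, by −1.21. KBTBD13 had few reads, 8 to 63 per library. It was at 1.43, 2.01 and 2.74 CPM in summer and 0.358, 0.680 and 1.32 CPM in winter, without overlap, and its log2 fold change was −1.57 (SE 0.32, adjusted p = 0.00283).

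Of the 9 genes of the thick filament, titin and the M-band, 2 were higher and 3 lower. These are 22.2 and 33.3% of them, against 19.6 and 21.2% of all genes tested. Titin (TTN), the spring between Z-disc and M-band, was at 16654, 18434 and 22238 CPM in summer and 24019, 31768 and 33074 CPM in winter, without overlap. It rose by 0.65 (SE 0.15, adjusted p = 0.00675), from 0.39 to 0.93 in single bears. The fast form of myosin-binding protein C, MYBPC2, was at 2443, 2876 and 3258 CPM in summer and 933, 1196 and 1661 CPM in winter. Each winter library was below each summer library, with a log2 fold change of −1.26 (SE 0.17, adjusted p = 0.000243). The slow form MYBPC1, at 6529.7, 7775 and 8478 CPM in summer and 8088, 8881 and 9786 CPM in winter, was slightly higher in 6 of 6 bears, by 0.03 to 0.45, and was not called (0.24, adjusted p = 0.188). DESeq2 without the bear as a term did call it (adjusted p = 0.0367, within 0.0367 to 0.401 over the alternatives).

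MYBPH, the short relative of these proteins, was at 17.1, 40.5 and 65.2 CPM in summer and 42.7, 71.5 and 143 CPM in winter. Its change of 1.05 (SE 0.30, adjusted p = 0.0165) varied widely, from −0.58 in bear 1316 to 2.06 in bear 1511. The adjusted p was 0.063, 0.0544 and 0.0542 without bear 1305, 1511 or 1512 (0.000345 to 0.063 over the alternatives). The myomesins crosslink thick filaments at the M-band. MYOM2, the form of fast fibres, was at 992, 1183 and 1521 CPM in summer and 432, 643 and 764 CPM in winter, without overlap, and changed by −1.02 (SE 0.18, adjusted p = 0.00145). MYOM1, present in all fibres, fell in 6 of 6 bears by a smaller amount, −0.41 (SE 0.14, adjusted p = 0.0345), and its adjusted p was 0.0887, 0.0756, 0.068 and 0.0698 without bear 1305, 1316, 1317 or 1509 (0.00488 to 0.0887 over the alternatives). MYOM3, a form linked to slow and intermediate fibres, was at 91.4, 355 and 473 CPM in summer and 232, 326 and 982 CPM in winter and ranged from −0.93 in bear 1305 to 1.96 in bear 1512. It was not called at 0.62 (SE 0.30, adjusted p = 0.119), though without bear 1305 it was 0.90 with an adjusted p of 0.0171 (0.0171 to 0.33 over the alternatives). The obscurin-like OBSL1 (0.10) and the kinase SPEG (0.04) lay near 0 and were not called.

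In the Z-disc core, 4 of 12 genes were lower in winter and 1 was higher, with a median log2 fold change of −0.39. These are 33.3 and 8.33% of them, against 21.2% lower and 19.6% higher of all genes tested. TCAP, or telethonin, which links the ends of 2 titin molecules, was at 1202, 2193 and 2697 CPM in summer and 544, 668 and 1038 CPM in winter. All winter libraries lay below all summer libraries, the winter library of bear 1511 stood apart as the highest of its season, and single bears changed by −2.31 to −0.87. Its log2 fold change of −1.56 (SE 0.21, adjusted p = 0.000248) was opposite in sign to that of titin. The alpha-actinins, the main crosslinkers of the Z-disc, both fell. ACTN2, found in all fibres, was at 2381, 2880.1 and 3110.5 CPM in summer and 1534, 1915 and 2254 CPM in winter, without overlap, with a log2 fold change of −0.54 (SE 0.13, adjusted p = 0.00834). ACTN3, the form of fast fibres, was at 1013, 1386 and 1771 CPM in summer and 544, 827 and 1279.7 CPM in winter, with a log2 fold change of −0.78 (SE 0.18, adjusted p = 0.00577), lower in 6 of 6 bears but with some overlap.

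The myozenins, or calsarcins, tie alpha-actinin to calcineurin. MYOZ3 was at 92.7, 142 and 155 CPM in summer and 52.6, 59.2 and 66.5 CPM in winter, without overlap, with a log2 fold change of −1.16 (SE 0.14, adjusted p = 0.000186). MYOZ1, a form of fast fibres, was at 2114, 2802 and 3573 CPM in summer and 1729.6, 2044 and 2399.6 CPM in winter. At −0.42 (SE 0.16, adjusted p = 0.0594) it missed the threshold, and it was called under 8 of the 14 alternatives, among them the fit with no replicate block (adjusted p = 0.03) and the fits without bear 1317 (0.0395) or bear 1509 (0.0462), within 0.00933 to 0.176 over the alternatives. MYOZ2, the form of slow fibres and heart, was at 174, 381 and 547 CPM in summer and 322, 440 and 1012 CPM in winter and rose by 0.60 (SE 0.19, adjusted p = 0.027) in 5 of 6 bears. That call depended on the pairing, with an adjusted p of 0.229 without the replicate block, and on single animals, with 0.0747, 0.0686, 0.0829 and 0.0849 without bear 1316, 1317, 1511 or 1512 (0.00185 to 0.229 over the alternatives).

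The other Z-disc genes were not called. Myotilin (MYOT) was lower in 6 of 6 bears at −0.43 (SE 0.16, adjusted p = 0.0578), close to the threshold, and had an adjusted p of 0.0469 without bear 1509 and 0.0383 with library totals (0.0187 to 0.181 over the alternatives). LDB3 (−0.15), which binds alpha-actinin through a PDZ domain, myopalladin (MYPN, 0.22), SYNPO2 (−0.26) and filamin C (FLNC, −0.37) had adjusted p values from 0.226 to 0.4. FLNC differed by −1.75 in bear 1509 against 0.47 in bear 1512. SYNPO2L stood at 0.34 (adjusted p = 0.0964) and without bear 1509 at 0.49 (adjusted p = 0.0161, within 0.0161 to 0.259 over the alternatives).

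The LIM domain proteins dock signalling and adaptor proteins onto the Z-disc. PDLIM3, or ALP, which binds alpha-actinin 2, had the largest rise of the 49 genes. It was at 490, 684 and 1179 CPM in summer and 1498, 2190.5 and 2984 CPM in winter. No summer library reached the lowest winter one, and the log2 fold change of 1.61 (SE 0.17, adjusted p = 7.49e-05) was seen in 6 of 6 bears, from 1.15 to 2.39. Its relative PDLIM1 went the other way, from 74.1, 105 and 165 CPM in summer to 51.3, 67.5 and 89.9 CPM in winter, at −0.61 (SE 0.15, adjusted p = 0.00811). PDLIM5 was slightly lower in 6 of 6 bears at −0.23 (adjusted p = 0.133) and was not called. PDLIM7 had the widest spread between bears of all 49 genes, with differences from −2.50 to 0.69 and a log2 fold change of −0.72 (adjusted p = 0.162). FHL1 was at 4519, 5555 and 7987 CPM in summer and 4652, 5550.1 and 7005 CPM in winter (0.02, adjusted p = 0.922). FHL3 was at −0.35 (adjusted p = 0.201), and at −0.55 without bear 1511 (adjusted p = 0.0361, within 0.0361 to 0.509 over the alternatives).

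NRAP and the Xin proteins XIRP1 and XIRP2 are actin-binding proteins of the myotendinous junction, of growing myofibrils and, for the Xin proteins, of damaged sarcomeres. NRAP was at 1853, 2756 and 4333 CPM in summer and 6808, 7567 and 8803 CPM in winter, without overlap, and rose by 1.5 (SE 0.21, adjusted p = 0.000332). The rise ranged from 0.65 in bear 1509, whose summer library was the highest of the season, to 2.25 in bear 1316. XIRP1, at 57.6, 91.5 and 200 CPM in summer and 60.9, 152 and 306 CPM in winter, was higher in 5 of 6 bears and at −0.87 in bear 1509, and was not called (0.67, adjusted p = 0.0798). Without bear 1509 it was at 0.98 with an adjusted p of 0.00382 (0.00382 to 0.219 over the alternatives). XIRP2 was at 857, 1107 and 1273 CPM in summer and 682, 1096 and 3581 CPM in winter. It differed by 1.74 in bear 1317 and 0.98 in bear 1316 and by values between −0.34 and 0.01 in the other 4 bears (0.32, adjusted p = 0.359).

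Desmin (DES), the intermediate filament of muscle, was at 2186, 2613 and 2969 CPM in summer and 1984, 2912 and 3419 CPM in winter. With a log2 fold change of 0.12 (SE 0.16, adjusted p = 0.585) and bears on both sides of 0, no difference larger than the spread between bears was seen. Its partner synemin (SYNM) stood at −0.03 (adjusted p = 0.873). CMYA5, or myospryn, a large protein that binds desmin, was at 2572, 2992 and 4041 CPM in summer and 3694, 5229 and 6272 CPM in winter and rose by 0.69 (SE 0.13, adjusted p = 0.00211) in 6 of 6 bears. The myosin chaperone UNC45B (0.03), the methyltransferase SMYD1 that acts with it (−0.29) and SMTNL2 (0.22) gave 0 calls in edgeR, where 0 had an unadjusted p under 0.05, as in DESeq2 with the bear and limma voom (0 each). Leaving out a bear brought SMYD1 to −0.44 without bear 1316 (adjusted p = 0.025, within 0.025 to 0.371 over the alternatives) and SMTNL2 to 0.44 without bear 1509 (adjusted p = 0.0302, within 0.0302 to 0.751 over the alternatives).

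Ratios of partner genes within a library do not depend on the scaling between libraries. The pairs were chosen with earlier results of these data known, so their p-values are not those of pairs set in advance. The 6 ratios were compared between the seasons by an exact two-sided permutation test over the 6 bears, whose smallest possible p is 0.03125. Their p-values were adjusted over these 6. The fast-to-slow ratio of myosin-binding protein C, MYBPC2/MYBPC1, ran on the log2 scale from −1.61 to −1.04 in summer and −3.21 to −2.37 in winter. It fell in 6 of 6 bears, with a mean difference of −1.5 ± 0.44 (SD, n = 6 bears; exact permutation p = 0.03125, adjusted 0.046875). The M-band ratio MYOM2/MYOM3 ran from 1.33 to 3.44 in summer and −1.16 to 1.72 in winter and also fell in 6 of 6 bears, with a mean difference of −1.63 ± 1.02 (SD, n = 6 bears; exact permutation p = 0.03125, adjusted 0.046875), from −2.84 in bear 1317 to −0.16 in bear 1305. The Z-disc ratios were less uniform. MYOZ1/MYOZ2 was lower in 5 of 6 bears and higher by 0.40 in bear 1509, with a mean of −1.01 ± 0.84 (SD, n = 6 bears; exact permutation p = 0.0625, adjusted 0.075), and ACTN3/ACTN2 was lower in 5 of 6 bears with a mean of −0.24 ± 0.35 (SD, n = 6 bears; exact permutation p = 0.09375, adjusted 0.09375). Neither passed the threshold.

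TMOD4/TMOD1 ran from 2.00 to 2.94 in summer and 3.49 to 4.29 in winter, so that the seasons did not overlap, and rose by 1.35 ± 0.39 (SD, n = 6 bears; exact permutation p = 0.03125, adjusted 0.046875). As a comparison chosen after these values were seen, the fast-to-slow ratios of the troponins were tested likewise, with p-values adjusted over these 3 alone. TNNT3/TNNT1 differed by −0.12 ± 0.65 (SD, n = 6 bears; exact permutation p = 0.6875, adjusted 0.6875), TNNI2/TNNI1 by −0.48 ± 0.54 (SD, n = 6 bears; exact permutation p = 0.125, adjusted 0.1875) and TNNC2/TNNC1 by −0.63 ± 0.39 (SD, n = 6 bears; exact permutation p = 0.0625, adjusted 0.1875). The troponin ratios were lower in 4, 4 and 5 of 6 bears, in that order. The differences between ratios were not tested. Among markers of slow fibres 2 of 9 were lower and 7 were not called (median log2 fold change 0.07). The lower ones were the slow myosin MYH7 (−0.66, adjusted p = 0.0284) and ATP2A2 (−0.63, adjusted p = 0.0122), each in 6 of 6 bears. Among markers of fast fibres 2 of 8 were lower and 6 were not called (median −0.40). Here ATP2A1 (−0.52) and CASQ1 (−0.39) were lower, and the fast myosin MYH1 was not called (−0.46, adjusted p = 0.295). Ratios of the myosins or of the ATP2A genes were not tested. The lower ones are 22.2 and 25% of these lists, near the 21.2% of all genes tested.

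**Figure D4:**
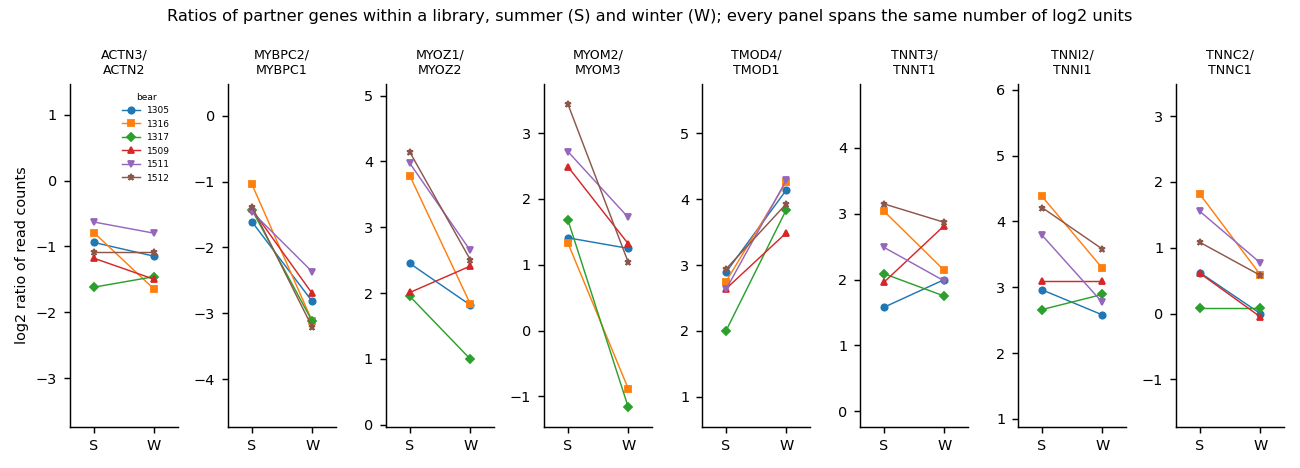
Log2 ratio of the read counts of partner genes (y axes, each spanning an equal number of log2 units) in the summer (S) and winter (W) library of each bear, with a line per bear. The MYBPC2/MYBPC1 and TMOD4/TMOD1 values of the 2 seasons do not overlap, whereas those of ACTN3/ACTN2, MYOZ1/MYOZ2, MYOM2/MYOM3 and the 3 troponin ratios on the right do.

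Widely expressed relatives of these genes and other cytoskeletal genes, such as MYH9, TPM4 and CFL1, were examined as a list of 19 genes, all tested. In winter 15 of them were lower, with a median log2 fold change of −0.68, and 0 were higher in edgeR (0 with an unadjusted p under 0.05, 0 by DESeq2 and 0 by limma voom). The lower ones are 78.9% of the list, where 21.2% of all genes were lower and 19.6% higher. The cytoplasmic actins ACTB (−0.55) and ACTG1 (−0.93) were both lower, beside ACTA1 at −0.91. ACTN1 (−0.68) and ACTN4 (−0.47) were lower as well, beside ACTN2 at −0.54 and ACTN3 at −0.78. Vimentin (VIM), the intermediate filament of fibroblasts and endothelium, was at −1.10 (adjusted p = 0.00124) beside 0.12 for desmin, and the filamin FLNA (−0.70) was called lower while FLNC was not. The differences between these pairs were not tested.

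**Figure D5:**
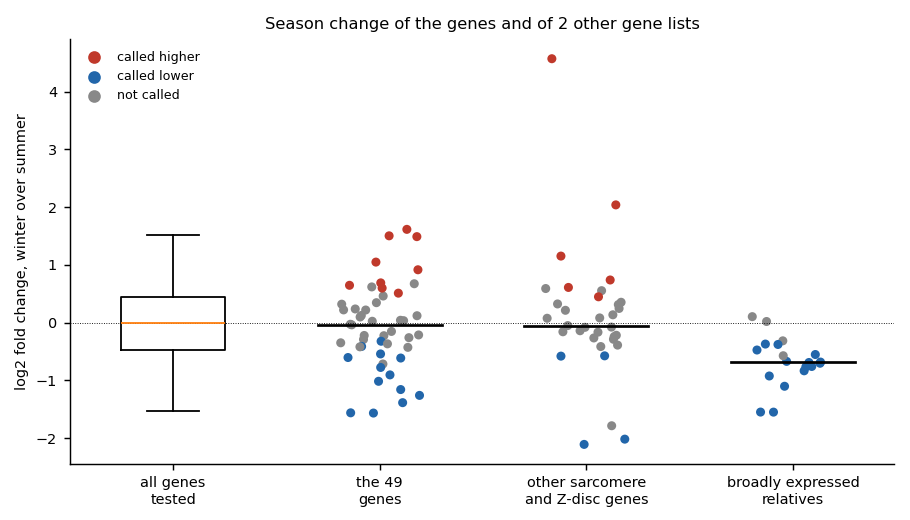
Log2 fold change of winter over summer (y axis) for all genes tested (box from the lower to the upper quartile with the median, whiskers at the 5th and 95th percentile) and for each gene of 3 lists (dots, coloured by call, with a bar at the list's median). The medians are −0.04 for the 49 genes, −0.05 for other sarcomere and Z-disc genes and −0.68 for the broadly expressed relatives.

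Markers of other cells of the biopsy were examined in the same libraries. For the counts that follow, 21.2% of all genes tested were lower in winter and 19.6% higher. Of the fibroblast markers 5 of 6 were lower, and their summed level was 4176 to 11269 CPM in summer and 269 to 1623 CPM in winter. Endothelial markers were lower in 4 of 6, with CLDN5 higher at 0.78 (588 to 921 and 396 to 460 CPM), smooth muscle markers in 5 of 7 (264 to 332 and 160 to 254 CPM) and leukocyte markers in 4 of 6 (57.2 to 98 and 22.3 to 54.9 CPM). Schwann cell markers were lower in 2 of 5 and adipocyte markers in 1 of 5, where the adipocyte median was 0. Of 2 cardiac markers tested, 1 was higher and 1 lower. Several of the 49 genes, among them CAPZA1, CAPZB, PDLIM1, PDLIM7, SYNPO2 and SYNM, are made outside muscle fibres too. The part of other cells was not tested for any of the 49 genes, TMOD1 and its ratio to TMOD4 included. Skeletal muscle markers summed to 91567 to 160857 CPM in summer and 95095 to 130832 CPM in winter, sums in which CKM weighs most. All 8 of the list were tested and 2 were lower, the oxygen store myoglobin (MB, −1.02, adjusted p = 0.00066) and the calcium pump ATP2A1 (−0.52, adjusted p = 0.00793), both without overlap between the seasons.

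Further genes of the same structures, a list of 36 of which 33 were tested, gave 6 higher and 4 lower in winter. These are 18.2 and 12.1% of those tested, not above the 19.6 and 21.2% of all genes. The higher ones were the titin-binding ANKRD1 (4.57) and ANKRD2 (2.04), CSRP3 (1.15), a Z-disc partner of telethonin, TRIM54 (0.74), SYNC (0.61) and HSPB8 (0.45). The lower ones were HSPB1 (−2.11), FHL2 (−2.02), TRIM55 (−0.58) and DNAJB6 (−0.58).

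The bears did not contribute equally. The median difference over the 49 genes was −0.33 in bear 1509 and between −0.16 and 0.11 in the other 5, while over all genes it lay between −0.03 and 0.01. In bear 1509, 15 of the 49 genes were higher in winter, against 21 to 26 in the other bears, and 15 genes had their lowest difference of the 6 bears there. Leaving this bear out gave 12 genes higher and 12 lower in place of 9 and 13.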

How the data were processed

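RNA of 12 vastus lateralis biopsies of 6 bears was measured. The authors used a stranded mRNA kit and 2 lanes that the labels do not assign to samples, aligned the single 50-base reads to ASM358476v1 with TopHat 2.1.1, discarded alignments with more than 3 mismatches and counted them with featureCounts 1.6.2 (strand option 2). The deposited values are raw read counts per gene, from 16742406 to 32140160 per library, and counting error of low genes such as KBTBD13 limits their precision. A sum below 30 reads over the 12 libraries excluded a gene (0.019% of reads). With R 4.3.3 and edgeR 4.0.16, counts were scaled by TMM and fitted by glmQLFit and glmQLFTest with bear and season as terms because each bear gave both samples. The study used DESeq2, and its design formula is not given in the sources used here. The standard error is the log2 fold change over the root of F. Log2 CPM used a prior count of 2 and ratios a pseudocount of 1 read.

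After subtraction of the season means, the 2 libraries of a bear correlated at 0.0903 to 0.344. Libraries of different bears correlated at a median of −0.0634 and at most at 0.142, so the lowest value within a bear lay inside their range. No library copied another of its season (lowest chi-square per gene 39). In simulated data on 17290 genes with 200 changed, edgeR with the bear recovered 81% of 2-fold and 98% of 4-fold changes, with 8 false calls. The changed genes were drawn from those above a set read depth. In the data 40.8% of genes were called, far more than were changed in the simulation, so these rates need not hold there.

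Alternatives were no replicate block, RLE, library totals, no filter, filterByExpr, DESeq2 1.42.0 with and without the bear, limma voom (limma 3.58.1), each bear left out, the study's limits of an adjusted p below 0.01 with a fold change above 1.3 or below 0.77, and pseudocounts of 0.5 and 5. The genes, lists and ratios were chosen with earlier results of these data known. The lowest, median and highest library of each season were given for the genes of the ratios, for TTN, NEB, ACTA1 and DES and for the 10 called genes of largest change, and for examples of the other roles. Of 114 context genes, 106 were tested, 5 of them matched by RefSeq gene number (UrsArc2.0 table, names only). Of the 6 ratios, 1 is not reported here. Transcript lengths and sequences were not used here.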

Additional observations from a re-analysis of the deposited data

Results flagged for a closer look

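Within each season, a highest or lowest library was singled out when Dixon's test at the 95% level set it apart from the other 5. This was so in 9 of 110 season groups, where chance gives about 1 in 20. In the summer library of bear 1316, FHL3 was at 7.66 log2 CPM (others 6.31 to 6.72), SMYD1 at 6.52 (others 7.21 to 7.48) and LMOD2 at 9.94 (others 9.33 to 9.50). In the winter library of bear 1509, SMTNL2 was at 4.26 (others 5.62 to 6.06) and OBSL1 at 4.03 (others 5.44 to 5.72). In the winter library of bear 1511, LMOD3 was at 8.59 (others 9.17 to 9.39) and TCAP at 10.02 (others 9.09 to 9.42). FLNC stood at 9.51 in the summer library of bear 1512 (others 10.19 to 10.46), and the log2 ratio TMOD4/TMOD1 at 2.00 in that of bear 1317 (others 2.63 to 2.94).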

How the results depend on the processing

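Of the 22 called genes, 16 were called with the same direction under each of the 14 alternatives with the same threshold, and none of the 22 changed direction. Of the 27 genes not called, 9 were called under at least 1 alternative. Without the replicate block 8 genes were higher and 14 lower. Across the bears left out, 7 to 12 were higher and 11 to 14 lower. At the study's stricter limits, which call fewer genes by construction, 6 of the 49 were higher and 10 lower, and over all genes 2115 and 2325 in place of 3392 and 3663. With library totals 2700 and 4083 of all genes were called and their median log2 fold change was −0.08.

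Genes near 0 changed sign without a call. Across the bears left out, TMOD4 ran from −0.11 to 0.03, SPEG from −0.02 to 0.22, FHL1 from −0.07 to 0.15, SYNM from −0.09 to 0.03 and UNC45B from −0.04 to 0.11. With library totals SPEG was at −0.04, FHL1 at −0.06 and UNC45B at −0.05. With 5 bears the smallest exact p of a ratio is 0.0625, so leaving out a bear ends the calls by construction. The mean differences were then −1.62 to −1.38 for MYBPC2/MYBPC1, −1.92 to −1.39 for MYOM2/MYOM3 and 1.25 to 1.45 for TMOD4/TMOD1. Pseudocounts of 0.5 or 5 left the mean differences of the ratios reported unchanged to 2 decimals, except those of the troponins, for which no other pseudocount was run. Depth limits KBTBD13 most, with 8 to 63 reads per library.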
